A study of Mus musculus with 2 samples.

Results

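The keratin family was described in cultured muscle progenitors of neonatal mice, in 1 RNA-seq library labelled WT and 1 labelled Pax7 KO. The 51 keratins are the rows, of 23236 in the deposited table, whose symbol is Krt followed by a number and at most 1 letter, without the keratin-associated proteins. Both groups are described in the labels as neonatal activated skeletal muscle satellite cells, the stem cells of muscle, grown as primary myoblasts on Matrigel with serum and bFGF. In the KO group Pax7, the paired-box factor of satellite cells, was deleted with the Pax7CreER and Pax7flox alleles and tamoxifen, 75 µg per g of body weight on 5 consecutive days from day 5. The Cre is driven from Pax7 and so acts in cells that express it. The sources used here do not say whether the WT animals carried the Cre or the floxed allele, whether they received tamoxifen, or whether animals were pooled. The groups are those used throughout, with 1 library each, so every difference below is one between 2 libraries with no replicate check, and no p-value is given. These members were taken up because some of them differed between the libraries, so their differences are a description and not a test.

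Keratins are the intermediate filament proteins of epithelial cells. A filament is built from pairs of a type I (acidic) and a type II (basic) keratin, and each epithelium uses its own pairs: Krt5 with Krt14 in the basal layer of skin, Krt1 with Krt10 in the layers above, Krt6 with Krt16 and Krt17 in wounded or activated skin and in the hair follicle, and Krt8 with Krt18 in simple, single-layered epithelia. Skeletal muscle fibres and satellite cells are known for desmin rather than keratins as their main cytoplasmic filament, although muscle also holds Krt8 and Krt19 at low levels. In bulk RNA more cells of a type and more RNA per cell cannot be told apart.

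Promoters are shown for Krt5 and Krt79, the keratins more than 2-fold higher in KO whose window lies at the 5′ end of the RefSeq gene, and for the abundant simple epithelial pair Krt8 and Krt18. Each runs 5′ to 3′ on the gene's strand from 250 bases before to 50 after the RefSeq start on GRCm38.p6, at chr15:101712856-101713155 (minus strand) for Krt5, chr15:101940275-101940574 (minus strand) for Krt79, chr15:102004293-102004592 (minus strand) for Krt8 and chr15:102027966-102028265 (plus strand) for Krt18. Capitals mark matches to CANNTG, the E-box.
Krt5: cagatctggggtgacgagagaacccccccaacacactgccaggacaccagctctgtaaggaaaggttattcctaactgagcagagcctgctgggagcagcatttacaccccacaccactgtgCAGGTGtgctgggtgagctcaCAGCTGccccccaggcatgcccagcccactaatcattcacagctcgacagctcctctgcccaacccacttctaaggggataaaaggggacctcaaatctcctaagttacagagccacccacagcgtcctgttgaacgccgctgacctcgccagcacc
Krt79: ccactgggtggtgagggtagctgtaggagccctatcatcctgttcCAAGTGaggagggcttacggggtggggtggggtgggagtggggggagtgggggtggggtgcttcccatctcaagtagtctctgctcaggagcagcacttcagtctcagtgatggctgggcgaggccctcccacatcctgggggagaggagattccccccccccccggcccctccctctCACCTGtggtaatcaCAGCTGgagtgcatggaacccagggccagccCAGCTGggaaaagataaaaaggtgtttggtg
Krt8: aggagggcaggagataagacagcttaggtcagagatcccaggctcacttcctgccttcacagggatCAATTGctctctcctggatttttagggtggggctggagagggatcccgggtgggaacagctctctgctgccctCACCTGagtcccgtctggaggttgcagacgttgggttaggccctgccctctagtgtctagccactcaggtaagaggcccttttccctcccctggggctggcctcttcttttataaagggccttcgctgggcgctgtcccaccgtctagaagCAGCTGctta
Krt18: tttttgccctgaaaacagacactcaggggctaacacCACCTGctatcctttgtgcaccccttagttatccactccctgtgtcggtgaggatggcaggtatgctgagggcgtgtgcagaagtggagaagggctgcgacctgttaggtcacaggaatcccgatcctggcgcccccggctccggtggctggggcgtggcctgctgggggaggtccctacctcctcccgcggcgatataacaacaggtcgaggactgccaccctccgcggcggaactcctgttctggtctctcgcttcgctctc

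The RefSeq promoter table held 34 of the 51 keratins in 35 windows, among them 3 of the 7 keratins more than 2-fold higher in KO (Krt5, Krt14 and Krt79). Of the 35 windows 27 start at the 5′ end of the RefSeq gene and 8 inside the gene, that of Krt14 1480 bases inside, so it is not shown. Searched on both strands, CANNTG was in 28 of the 35 windows (80.0%) and in 72.3% of all 32851 promoter windows. Krt5 held it at 2 places, Krt79 at 4, Krt8 at 3 and Krt18 at 1. TATAAA, the TATA box, was in 18 of the 35 (51.4%) against 13.6% of all. Of the 4 windows shown only Krt8 held these exact letters, at positions -3 and -1 from the RefSeq start. Variants of the TATA box were not counted, so its absence from the other windows is not shown. TGANTCA, the AP-1 motif, was in 2 of the 35 (5.71%) against 7.81% of all, and TAAT and ATTA with any 2 bases between them, a paired homeodomain motif, in 0 of the 35 against 0.390% of all. The core of p53 family sites, CNNG and CNNG with any 6 bases between them, was in 22 of the 35 (62.9%) against 70.2% of all; it can overlap the other motifs. These matches describe letters in the windows and show no binding.

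Expression was deposited as FPKM, in which fragment counts are divided by transcript length and by library size, so levels of different genes can be set side by side. Differences are given as log2((KO FPKM + 1) / (WT FPKM + 1)), the log2 ratio, in which changes at low FPKM come out smaller than they are, and a difference of 2-fold means a log2 ratio of at least 1, or of at most -1. A gene below 1 FPKM in both libraries cannot reach 2-fold by this rule, and 0 of the 9655 such detected genes did. Pax7 stood at 3.21 FPKM in WT against 0.769 in KO, the direction of the label. The row sums over the entire gene, so which part was deleted cannot be read from it. Of 8 myoblast markers 5 were more than 2-fold lower in KO, against 0.439% of all genes detected in at least 1 library. Des, the desmin gene, was at 75.8 and 67.6 FPKM. Across the table values tended to be higher in KO: the median log2 ratio was 0.42 over the 11751 genes whose mean FPKM reached 1 and 0.17 over the 21888 genes detected in at least 1 library. "Relative to the median gene" below means after subtracting 0.42. At low FPKM the pseudocount draws ratios toward 0, so there the subtraction alone can give a value below 0. Depth, estimated from the steps between low values, came to some 25000000 fragments for WT and 20900000 for KO.

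Keratin RNA was present in both libraries, and 7 keratins were at least 2-fold higher in KO while 0 were at least 2-fold lower. The 7 were the basal keratins Krt5 and Krt14, the activation keratins Krt6a, Krt6b, Krt16 and Krt17, and Krt79. Of all 21888 detected genes 2.86% were higher by this rule and 0.439% lower; since these values chose the family, nothing is read from the comparison. Summed over the family, keratin FPKM was 107.9 in WT and 250.9 in KO, 2.33-fold higher. The sum holds a small number of keratins with large differences and many low ones with small differences. The median keratin had a log2 ratio of -0.0059, with 24 keratins above 0 and 27 below. Of the 51, 37 were below 1 FPKM in both libraries and could not pass 2-fold. All 9655 detected genes that low had a median log2 ratio of -0.02, and 54.4% of them lay below 0. So nothing about keratins is read from the 41 of 51 that lay below the median gene, a value from genes with higher FPKM. The 7 keratins carried 2.99% of the family's FPKM in WT and 30.0% in KO.

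**Figure D1:**
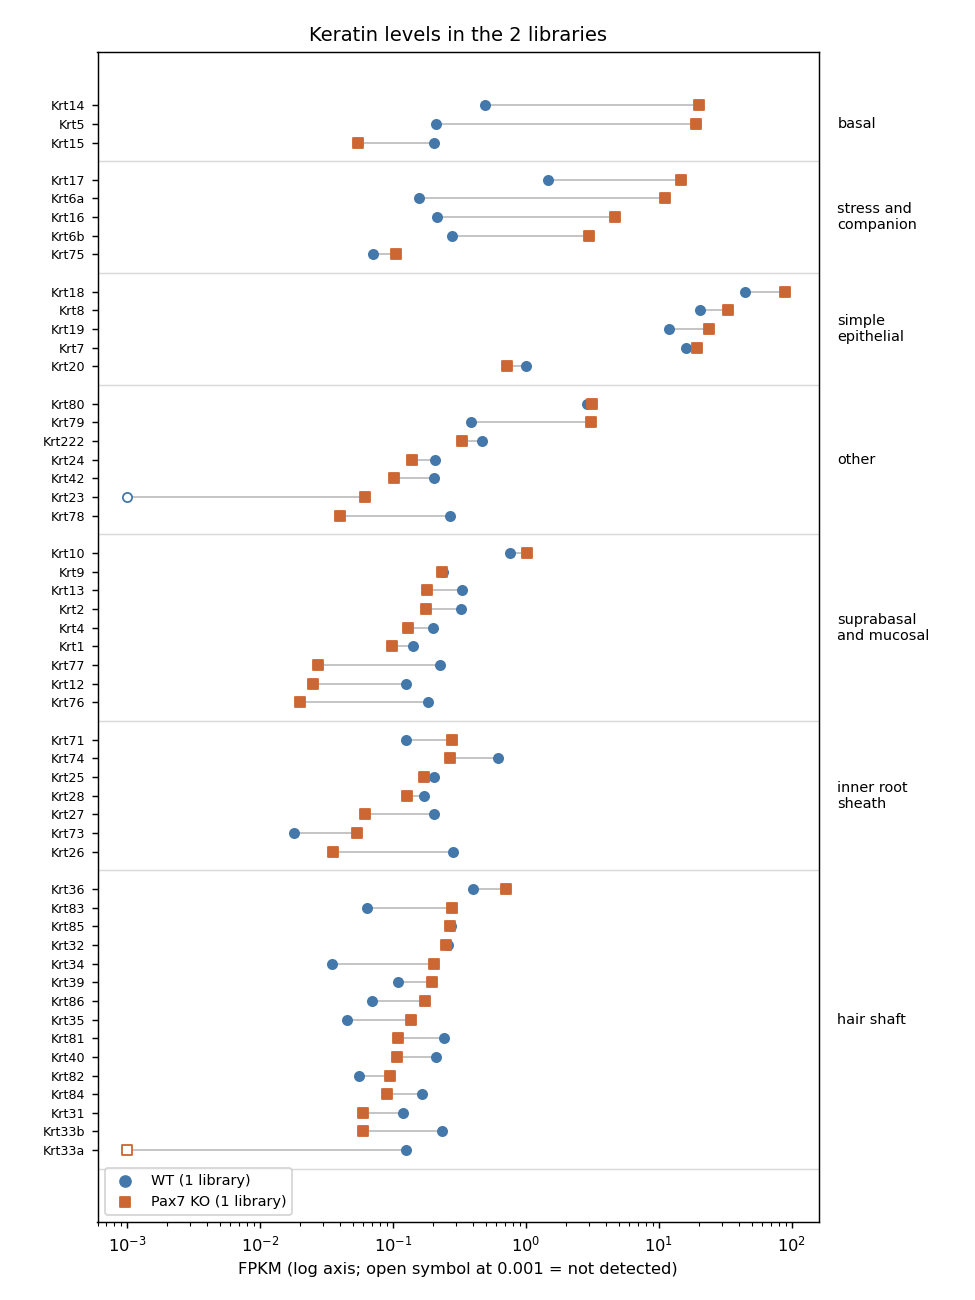
FPKM of each of the 51 keratins (rows, grouped by role) on a log axis, with a circle for the WT library and a square for the KO library; open symbols mark values not detected. Krt5 and Krt14 lie at 0.212 and 0.496 in WT and at 18.9 and 19.9 in KO, while the hair shaft and inner root sheath keratins stay below 1 in both libraries.

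The basal pair had the 2 largest log2 ratios of the family. Krt5 (chromosome 15, 101537501 to 101543322, mm9), the type II keratin of basal keratinocytes, was at 0.212 FPKM in WT against 18.9 in KO, 88.8-fold higher, with a log2 ratio of 4.03. Krt14 (chromosome 11, 100064476 to 100068824), its type I partner, was at 0.496 FPKM in WT against 19.9 in KO, 40.1-fold higher, with a log2 ratio of 3.80. Among all detected genes these ratios ranked 11th and 14th from the highest. In KO the 2 partners were near equal, at 1.05 Krt14 per Krt5. The WT ratio of 2.34 rests on about 21 Krt14 and 12 Krt5 fragments, against 705 and 866 in KO. Krt15, another type I keratin of the basal layer and of the hair follicle bulge, did not follow them, at 0.205 FPKM in WT against 0.0545 in KO, from about 9 and 2 fragments. The 95% counting intervals of log2(KO FPKM / WT FPKM), exact (Clopper-Pearson) and without a pseudocount, were 5.62 to 7.39 for Krt5, 4.70 to 6.03 for Krt14 and -5.16 to 0.36 for Krt15. They are approximate and cover counting error in these 2 libraries, not variation between cultures or animals.

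In WT, Krt5 lay inside the range of the hair keratins. The 15 hair shaft keratins ranged from 0.0347 to 0.4002 FPKM in WT with a median of 0.126, and the 7 inner root sheath keratins from 0.0180 to 0.618 with a median of 0.202. Krt14, at 0.496 FPKM, was above all hair shaft keratins and below the highest inner root sheath keratin, Krt74. In KO both Krt5 and Krt14 stood above every one of them, the highest being Krt36 at 0.705 FPKM.

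The keratins of activated and wounded epidermis were higher as well. Krt17 (chromosome 11, 100117531 to 100122303), a type I keratin of hair follicles and wounded skin, was the only one of the 7 above 1 FPKM in WT, at 1.47 FPKM against 14.7 FPKM in KO, 9.96-fold higher (log2 ratio 2.66, about 57 and 476 fragments). Krt16 (chromosome 11, 100107406 to 100110216), the type I partner of Krt6, was at 0.214 and 4.71 FPKM, 22.1-fold higher with a log2 ratio of 2.23. Krt6a, a type II keratin, was at 0.157 and 11.1 FPKM, a log2 ratio of 3.38, and its near-copy Krt6b at 0.280 and 2.96 FPKM, a log2 ratio of 1.63. Krt75, the type II keratin of the follicle's companion layer, was low in both libraries at 0.0703 and 0.105 FPKM. The counting intervals were 2.92 to 3.74 for Krt17, 3.51 to 5.76 for Krt16, 5.19 to 7.27 for Krt6a and 2.62 to 4.21 for Krt6b, all above the 2-fold line.

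Krt6a and Krt6b cannot be fully told apart in these values. Their rows carry the same locus (chromosome 15, 101346119 to 101524736), which 11 rows share, 6 of them keratins (Krt6a, Krt6b, Krt75, Krt82, Krt84 and Krt85). Of all 50-base words of the Krt6a transcript 43.6% also occur in Krt6b, and of those of Krt6b 44.5% occur in Krt6a, in GENCODE M21. Krt6a was listed at 0.562 times Krt6b in WT and at 3.74 times in KO, and how their reads were divided was not tested. Summed over the 11 rows the locus was at 1.78 FPKM in WT against 15.6 in KO, a log2 ratio of 2.57. Krt16 shares 37.6% of its words with transcripts of other genes, most with Gm11597, and Krt14 14.4%, most with Krt16, so both are uncertain to that extent. Krt5 and Krt17 share 8.52% and 3.995%, and Krt79 shares 0.

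Krt79 (chromosome 15, 101759763 to 101770755), a type II keratin of the mouse hair canal and sebaceous duct, was at 0.389 FPKM in WT against 3.10 in KO. It was 7.99-fold higher, with a log2 ratio of 1.56, a counting interval of 2.34 to 3.78 and about 20 and 136 fragments. Relative to the median gene the 7 log2 ratios ran from 1.14 for Krt79 to 3.61 for Krt5, so that all 7 stayed past 2-fold. By that measure 0.754% of detected genes were higher and 1.15% lower. The authors' deposited table of higher genes names all 7. It holds 713 genes (3.07% of those listed) and rests on the same libraries. Their table of 382 lower genes names 0 keratins. That table holds a smaller share of the listed genes than the higher one, and the keratin family is small. The 0 is therefore not read as a result.

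**Figure D2:**
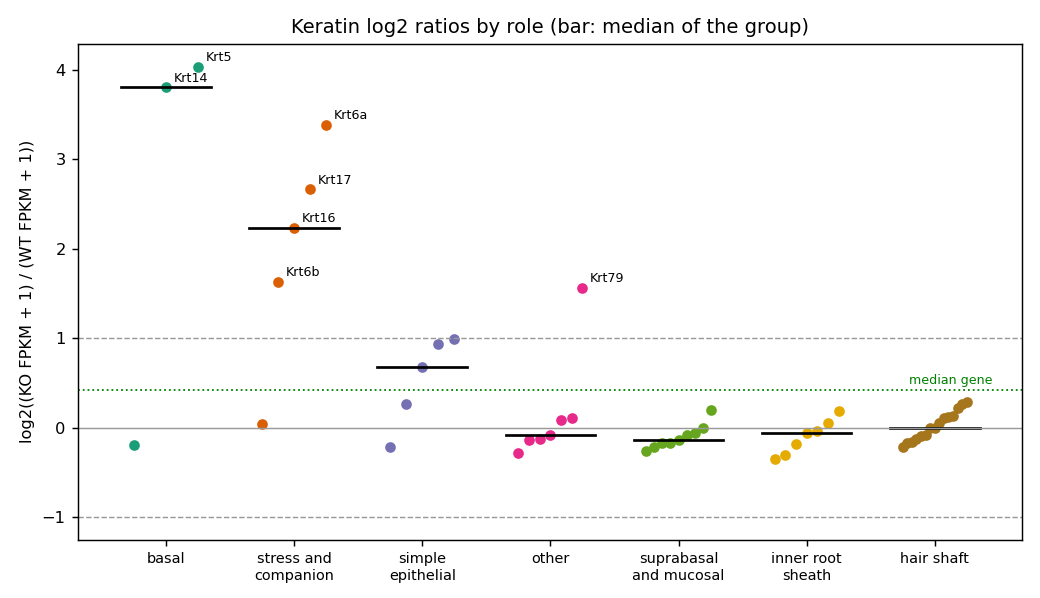
Log2 ratio of each keratin (points) by role, with a black bar for the median of the group, dashed lines at the 2-fold limit and a dotted line at the median gene (0.42). The points above the upper dashed line are Krt5 and Krt14 (basal), Krt6a, Krt6b, Krt16 and Krt17 (stress and companion) and Krt79; no point lies below the lower one.

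As a group, the simple epithelial keratins had the highest summed FPKM of the family in both libraries, 93.8 in WT against 166 in KO, a 1.77-fold difference. Krt18 (chromosome 15, 101858647 to 101862457), the type I keratin of simple epithelia, was at 44.4 FPKM in WT against 89.1 in KO, and Krt8 (chromosome 15, 101827142 to 101834773), its type II partner, at 20.4 and 33.2 FPKM. Krt19 (chromosome 11, 100002126 to 100007233), a short type I keratin without a tail domain, was at 11.9 and 23.6 FPKM. Krt7 (chromosome 15, 101242834 to 101258237), a type II keratin of ducts and mesothelium, was at 16.0 and 19.4 FPKM. Krt20 (chromosome 11, 99289717 to 99299467), a type I keratin of gut and urothelium, was at 1.01 and 0.725 FPKM. None of the 5 passed 2-fold by the log2 ratio; Krt18 and Krt19 lay closest to it, at 0.99 and 0.94.

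Without the pseudocount Krt18 was 2.01-fold and Krt19 1.99-fold higher, with counting intervals of 0.91 to 1.09 and 0.82 to 1.16 on the log2 scale, so that their side of the 2-fold line is not settled by counting. Relative to the median gene Krt18, Krt19 and Krt8 were higher by 0.57, 0.51 and 0.25, whereas Krt7 was at 0.26 as deposited and at -0.16 after centring, and its direction therefore depends on the scaling. Krt18 was listed at 2.17 times Krt8 in WT and at 2.68 times in KO, from about 1596 and 1001 fragments in WT and 2676 and 1358 in KO. Of the 50-base words of Krt8, 26.9% also occur in the pseudogene Krt8-ps, and of Krt18 0.720% occur in other transcripts. The 5 genes held 87.0% of the family's FPKM in WT and 66.2% in KO. Krt18 alone was at 89.6 times Krt14 in WT and at 4.48 times in KO.

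**Figure D3:**
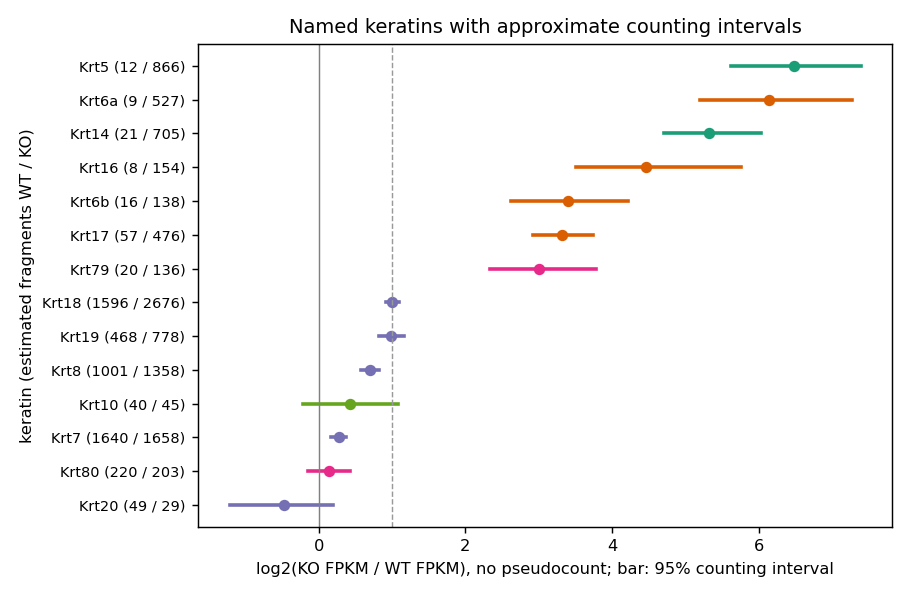
Log2(KO FPKM / WT FPKM) without a pseudocount (points) with 95% counting intervals (bars) for the 14 named keratins detected in both libraries, labelled with the estimated fragments in WT and KO; the dashed line is 2-fold. The 7 keratins from Krt5 to Krt79 have intervals wholly to the right of 2-fold, the bars of Krt18 and Krt19 cross it, and those of Krt10, Krt80 and Krt20 span 0.

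No keratin of differentiated epidermis passed 2-fold by the log2 ratio. All of this group but Krt10 were below 1 FPKM in both libraries and could not pass, so for them nothing is read from this. Krt10 (chromosome 11, 99246569 to 99250678), the type I keratin of the suprabasal layers, was at 0.760 FPKM in WT against 1.02 in KO, with a log2 ratio of 0.20, which is -0.22 relative to the median gene. Its type II partner Krt1 was lower than Krt10 in both, at 0.142 and 0.0977 FPKM. Of the 9 suprabasal and mucosal keratins, Krt10 alone had a ratio above 0. Of all 9655 detected genes below 1 FPKM in both libraries 54.4% lay below 0. The group's median log2 ratio was -0.14 and its summed FPKM was 2.54 in WT and 1.91 in KO, from about 144 and 89 fragments. The largest WT value besides Krt10 was that of Krt13, a mucosal type I keratin, at 0.332 FPKM, against 0.181 FPKM in KO.

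Hair keratins were near the lower end of the table in both libraries. The 15 hair shaft keratins summed to 2.41 FPKM in WT against 2.74 in KO, with 7 ratios above 0 and a median log2 ratio of -0.0040. The highest was Krt36 with 0.4002 and 0.705 FPKM. Krt33a, a keratin of the hair cortex, was at 0.126 FPKM in WT and not detected in KO, from about 5 fragments and 0. The 7 inner root sheath keratins summed to 1.62 and 0.993 FPKM, with 2 ratios above 0, from about 75 and 39 fragments. The highest of them was Krt74 in WT, with 0.618 FPKM against 0.267 in KO, and Krt71 in KO, with 0.278 FPKM. Of all 9655 detected genes below 1 FPKM in both libraries 54.4% had a ratio below 0. The remaining keratins had no place in these groups. Of them Krt80, a type II keratin, was at 2.86 and 3.17 FPKM, with a log2 ratio of 0.11, which is -0.31 relative to the median gene; its locus is shared with Mir1941, which was not detected. Krt23 was not detected in WT and was at 0.0613 FPKM in KO, about 2 fragments.

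The 36 keratins outside the named ones were all below 1 FPKM in both libraries, with log2 ratios from -0.35 to 0.28. Of 34 of them with a counting interval, 27 intervals spanned 0. The interval lay below 0 for 5 (Krt26, Krt74, Krt76, Krt77 and Krt78) and above 0 for 2 (Krt34 and Krt83), all on 1 to 25 fragments a library. These intervals are not adjusted for the number of keratins. Among keratins below 1 FPKM in both libraries, 26 of 37 (70.3%) had lower values in KO, and among all 9655 detected genes below 1 FPKM in both, 54.4% did. The median log2 ratios were -0.09 and -0.02. KO was the library of lower estimated depth, by a loose fit, and the part of depth in these values was not tested.

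By type, the 28 type I keratins summed to 64.4 FPKM in WT against 157 in KO, and the 23 type II keratins to 43.4 and 93.9 FPKM. Type I thus held 59.7% of the family's FPKM in WT and 62.6% in KO. Among the 7 keratins past 2-fold, which these values chose, Krt14, Krt16 and Krt17 of type I summed to 39.3 FPKM in KO. The type II members Krt5, Krt6a, Krt6b and Krt79 summed to 36.0 FPKM there. In WT these sums were 2.18 and 1.04 FPKM, from about 86 and 57 fragments, so no change of balance is read from them. The simple epithelial keratins were not in balance in either library, with type I at 57.3 and type II at 36.5 FPKM in WT, and 113 and 52.6 FPKM in KO.

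The genes lie in a cluster on each of 2 chromosomes, with 27 type I keratins on chromosome 11 and 23 type II keratins with Krt18 on chromosome 15. On chromosome 11, Krt14, Krt16 and Krt17 are the 24th to 26th of the 27 in order. Their neighbours were low in both libraries: Krt9, of palm and sole epidermis, was at 0.239 and 0.233 FPKM, and Krt42 at 0.203 and 0.102 FPKM. On chromosome 15 Krt5 stood between Krt71, an inner root sheath keratin at 0.125 and 0.278 FPKM, and the shared locus that holds Krt6a and Krt6b. The order of the keratins inside that locus is not given by the listed positions. Krt79 stood between Krt4, a mucosal keratin, and Krt78, at 0.267 and 0.0401 FPKM. The neighbours Krt9, Krt42, Krt71, Krt4 and Krt78 were below 1 FPKM in both libraries and could not pass 2-fold. Nothing is therefore read from their small log2 ratios. Without the pseudocount KO over WT was 0.973 for Krt9, 0.499 for Krt42, 2.225 for Krt71, 0.653 for Krt4 and 0.150 for Krt78.

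**Figure D4:**
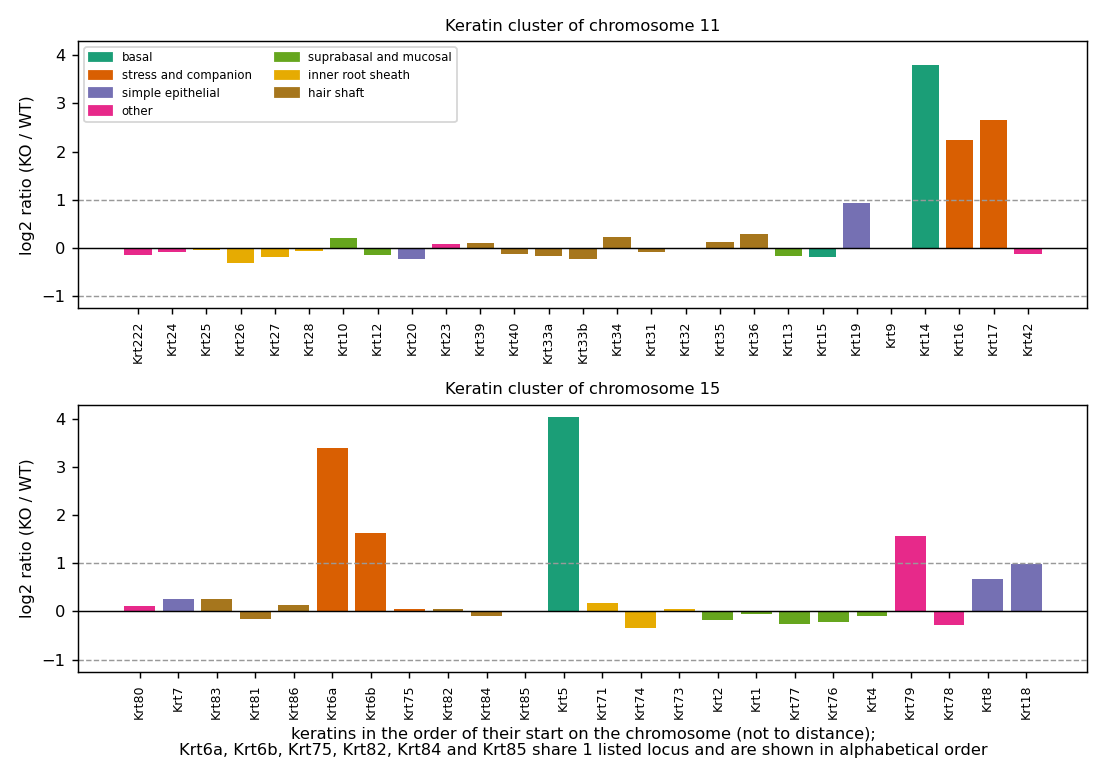
Log2 ratio (bars, coloured by role) of the keratins in their order along the clusters of chromosomes 11 and 15, with dashed lines at 2-fold. Krt14, Krt16 and Krt17 are neighbours near the end of the chromosome 11 cluster, while Krt79 stands between Krt4 and Krt78. Krt5 stands between Krt71 and the locus of 11 rows that holds Krt6a and Krt6b. Keratins below 1 FPKM in both libraries, among them Krt4, Krt71 and Krt78, could not pass 2-fold. Keratins of that locus are drawn in alphabetical order, so which of them is nearest to Krt5 cannot be read here.

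Intermediate filaments other than keratins did not pass 2-fold by the log2 ratio, which those below 1 FPKM in both libraries could not do. Of 15 such genes none was past 2-fold in either direction, and the median log2 ratio was 0.01. Of all 21888 detected genes 2.86% were higher by 2-fold and 0.439% lower, so the absence is not read as a result. Vim, the vimentin gene of mesenchymal cells, was at 1129 FPKM in WT against 1669 in KO, a log2 ratio of 0.56. Nes, the nestin gene of progenitors, was at 31.1 and 50.1 FPKM, Lmna, of the nuclear lamina, at 209 and 316 FPKM, and Synm, the synemin gene, at 0.704 and 1.43 FPKM. The summed keratin FPKM was therefore well below Vim alone in both libraries.

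Genes that anchor keratins to junctions were higher in KO in all 13 cases as deposited, and 1 passed 2-fold by the log2 ratio. Of all 21888 detected genes 15184 had a ratio above 0 and 2.86% were higher by 2-fold. Of the 11751 with a mean FPKM of 1 or more, 10413 had a ratio above 0. The anchor gene past 2-fold was Jup, the plakoglobin gene, at 15.01 FPKM in WT against 31.4 in KO, a log2 ratio of 1.02, and 0.60 relative to the median gene. Perp, a desmosome component, was at 1.68 and 4.32 FPKM, Col17a1, of hemidesmosomes, at 0.273 and 1.26 FPKM, and Itga6, a laminin receptor subunit, at 19.6 and 34.5 FPKM. Relative to the median gene 8 of the 13 lay above and none passed 2-fold. Dsp, the desmoplakin gene that ties keratins to desmosomes, was at 0.267 and 0.782 FPKM, where 2-fold cannot be passed. Without the pseudocount Col17a1 was 4.61-fold, Dsp 2.93-fold, Ppl 2.67-fold, Perp 2.57-fold, Pkp1 2.35-fold and Jup 2.09-fold higher. The other members were less than 2-fold higher.

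Of 15 cornified envelope genes 3 were more than 2-fold higher and none lower, against 2.86% and 0.439% of all detected genes. Their median log2 ratio was 0.25 against 0.17 for all detected genes. Relative to the median gene 2 of the 3 stayed past 2-fold, Krtdap was at 0.62, and the list's median was -0.17. Sbsn, the suprabasin gene, was at 2.16 FPKM in WT against 11.7 in KO, and Dmkn, the dermokine gene, at 0.0590 and 2.50 FPKM. Krtdap, the keratinocyte differentiation-associated gene, was not detected in WT and was at 1.06 FPKM in KO. Sfn, of stratified epithelia, was at 5.86 and 12.6 FPKM. Ivl and Lor, which encode the envelope proteins involucrin and loricrin, were below 1 FPKM in both libraries.

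No epithelial transcription factor or junction gene passed 2-fold by the log2 ratio. Those below 1 FPKM in both libraries, such as Trp63, Grhl3, Grhl1, Esrp2 and Rab25, could not pass, so for them nothing is read from this. Of 15 transcription factor genes 0 passed, with a median of 0.14. Of all 21888 detected genes 2.86% were higher by 2-fold and 0.439% lower. At these shares 0 in a list this short is not read as a result. Trp63, the p63 gene of basal epithelia, was at 0.254 FPKM in WT against 0.386 in KO. Klf4, which other cell types also express, was at 13.9 and 25.3 FPKM, Elf3 at 1.51 and 0.866 FPKM, Grhl3 at 0.0415 and 0.332 FPKM and Grhl1 at 0.287 and 0.637 FPKM. Of 11 epithelial junction genes 0 passed, with a median of 0.13, and their sum was 23.9 FPKM in WT against 26.5 in KO. As deposited 9 of the 11 ratios lay above 0, as did those of 15184 of all 21888 detected genes. Relative to the median gene 2 of the 11 did. The largest were those of Esrp2, an epithelial splicing regulator, at 0.288 and 0.743 FPKM, Epcam, an adhesion molecule, at 2.37 and 3.54 FPKM, and Rab25, a small GTPase of epithelia, at 0.418 and 0.819 FPKM. Cdh1, the E-cadherin gene, was at 2.70 and 2.33 FPKM, and St14, the matriptase gene, at 1.71 and 1.40 FPKM.

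Of the lists of other cell types, the adipocyte and mesothelial ones had most members more than 2-fold higher in KO. Of all detected genes 2.86% were higher and 0.439% lower, and relative to the median gene 0.754% and 1.15%. Of 6 mesothelial markers, of the lining of body cavities, 4 were more than 2-fold higher and none lower, 3 of them also relative to the median gene (Msln was then at 0.78), and the list summed to 4.91 FPKM in WT against 23.0 in KO. Upk1b was at 0.773 and 6.35 FPKM, Upk3b at 0.573 and 4.596 FPKM, Wt1, a transcription factor, at 0.223 and 2.77 FPKM, and Msln, the mesothelin gene, at 2.99 and 8.18 FPKM. Mesothelium also expresses keratins, among them Krt7, Krt8, Krt18 and Krt19, and these 4 are not a full list. All 6 adipocyte markers (Adipoq, Retn, Cidec, Plin1, Fabp4 and Pparg) were more than 2-fold higher, also relative to the median gene, with log2 ratios from 1.46 for Pparg, the regulator of adipocyte differentiation, to 3.08 for Adipoq, the adiponectin gene. Their sum was 211 FPKM in WT against 1102 in KO. Of 6 endothelial markers 1 was, Cldn5, of 6 fibroblast markers 1, Dcn, and of 6 smooth muscle markers 1, Rgs5. Relative to the median gene Cldn5 stayed past 2-fold, and Dcn and Rgs5, at 0.70 and 0.78, did not. These lists summed to 296 and 569, 128 and 195, and 841 and 891 FPKM. The 8 myoblast markers summed to 299 FPKM in WT against 146 in KO; besides Pax7 those more than 2-fold lower were Myf5, Myod1, Cdh15 and Chrna1. No marker of these lists was at the lowest listed value. Their part in the keratin differences was not tested.

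**Figure D5:**
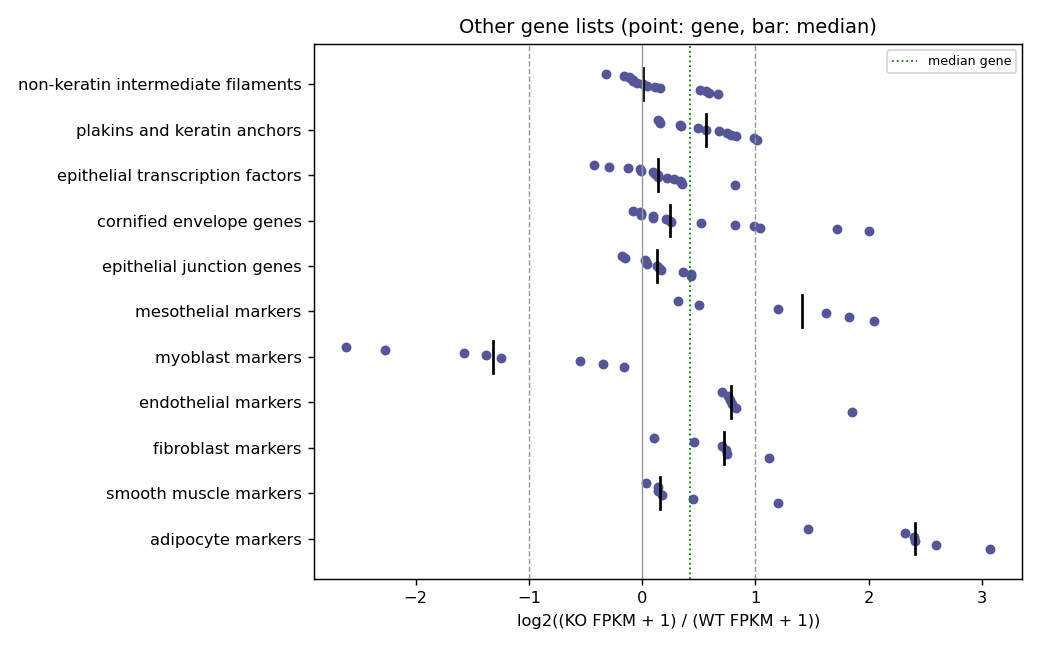
Log2 ratio of each gene (points) in 11 further lists, with a bar at the median of the list, dashed lines at 2-fold and a dotted line at the median gene. The adipocyte and mesothelial medians lie at 2.41 and 1.41, the myoblast median at -1.31, and the medians of the other intermediate filament, epithelial transcription factor and epithelial junction lists between 0.01 and 0.14.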

How the data were processed

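One polyA RNA-seq library per genotype was compared. The authors deposited FPKM values per gene, with 1 column for WT and 1 for KO, per the file headers, and a KO/WT fold, the ratio of both, in 2 lists of called genes. Per the submitters' processing notes the build was mm9 and the tools were Cuffdiff 2.1.1, Cufflinks 2.1.1 and TopHat2 2.0.9, with no roles stated; the sources used here give neither the scaling of the libraries nor the rule of the lists. The columns were used as deposited, with a pseudocount of 1; 0.001, the lowest value, counted as not detected, and the rows of the 1 repeated symbol were summed. Starts were taken as 0-based and raised by 1, because the difference of end and start matched the RefSeq gene length exactly at 6923 of 17030 loci and was short by 1 at 436.

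Depth was estimated as the fragment number at which FPKM times transcript length (GENCODE M21) came closest to whole numbers; the fit was loose, with a mean cosine of 0.44 in WT and 0.46 in KO, where exact multiples give 1. Fragment numbers and counting intervals assume that no scaling factor was applied; fragments were given for the 50 keratins with a transcript length, and intervals for the 48 of them detected in both libraries. The scripts were tested on simulated data.

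The members and lists were chosen with earlier results of these data known. Keratins were named at an FPKM of 1 or more in either library, at a 2-fold difference, or if detected in 1 library alone at 0.1 FPKM or more; of the other lists, members past 2-fold and up to 4 with the largest ratio. Other genes named (Krt1, Krt13, Krt15, Krt23, Krt75, the neighbours in the clusters, Des, Dsp, Ivl, Lor, Trp63, Cdh1) were chosen after their values were seen. Alternatives were pseudocounts of 0.1 and 0.5, centring, upper-quartile scaling, filters on mean FPKM, sums per locus, a 1.5-fold limit and the authors' lists. Computation used pandas 2.3.3, numpy 2.4.6, matplotlib 3.10.9 and scipy 1.17.1 under Python 3.11.15.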

Additional observations from a re-analysis of the deposited data

How the results depend on the processing

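The count of 7 keratins at least 2-fold higher ranged from 5 without the rows that share a locus to 10 with a pseudocount of 0.1 or a 1.5-fold limit. Without a pseudocount, a setting chosen after seeing the data, 14 of the 49 keratins detected in both libraries were higher and 11 lower, the added ones at low values except Krt18. The count of 0 lower became 6 with a pseudocount of 0.1 and was 0 in every other planned setting. The median log2 ratio of -0.0059 was -0.021 with a pseudocount of 0.1, -0.43 after centring, -0.11 with upper-quartile scaling, 1.596 over the 12 keratins with a mean FPKM of 1 or more, -0.023 with rows summed per locus and -0.047 without shared loci; the filter keeps keratins that pass through the library where they are high. The log2 ratio of the summed FPKM was 1.22, and 1.35 without Krt18, 0.80 after centring and 0.71 with upper-quartile scaling. Among the 15 named keratins the 7 past 2-fold stayed past it in the 5 settings run for each; Krt7, Krt10 and Krt80 changed direction under centring and upper-quartile scaling, and Krt18 and Krt33a passed 2-fold with a pseudocount of 0.1, at 1.00 and -1.16. No paired analysis was possible because each group has 1 library, and for the same reason no library could be left out. Below about 1 FPKM a value rests on few fragments, and fewer in KO.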

Other observations

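The keratin-associated proteins, the matrix proteins of hair, were measured at low values in both libraries. Of 52 such genes 49 were detected in at least 1 library. By the log2 ratio 0 passed 2-fold in either direction, which those below 1 FPKM in both libraries could not do. Of all 21888 detected genes 2.86% were higher by 2-fold and 0.439% lower. Lower values in KO were found for 32 of the 49, and for 54.4% of all 9655 detected genes below 1 FPKM in both. For the keratin-associated proteins the median log2 ratio was -0.11 and the summed FPKM was 17.4 in WT and 13.7 in KO. The highest in WT was Krtap5-4, at 1.38 FPKM against 0.645 in KO, and the highest in KO Krtap20-2, at 2.05 FPKM against 1.06 in WT.

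A further pair of keratin genes carries older symbols in the table and lies outside the pattern that chose the members. Krt72, listed as Krt72-ps, was at 0.0755 FPKM in WT against 0.0301 in KO. Krt90, listed as 4732456N10Rik at the locus of Krt6a, was at 0.0609 and 0.210 FPKM.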
